A study of Rattus norvegicus with 4 samples.

Results

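A set of 7 markers of hepatic stellate cells, and of the myofibroblasts they give rise to, was followed in rat liver: Vim, Des, Acta2, Tagln, Pdgfrb, Pdgfra and Lrat. They were picked by name, as probes whose symbol, or whose current name by Entrez identifier, is on that list of 7 among 20023 genes on the array. All rats were Sprague-Dawley, were injected intraperitoneally with diethylnitrosamine, a liver carcinogen, at an age of 10 weeks, and then ate a methionine-choline deficient diet during 12 weeks, a regime used to model steatohepatitis. They were wild type or carried a dominant negative Cx32 transgene (connexin 32 is the main gap junction protein of hepatocytes), and the diet either contained the plant flavonoid luteolin or did not. Each of these 4 groups was read on 1 single-colour array, and the carcinogen and the deficient diet are common to all. No source used here names the promoter of the transgene, the dose of luteolin, the sex, or how many rats stand behind an array.

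Stellate cells lie between hepatocytes and the sinusoidal endothelium and store vitamin A as retinyl esters. During chronic injury they turn into contractile, matrix-producing myofibroblasts, a change that platelet-derived growth factor (PDGF) and transforming growth factor beta drive and that is a main source of scar tissue in the liver. Lrat and desmin mark the storing cell, alpha smooth muscle actin (Acta2) and transgelin the contractile one, and vimentin and the PDGF receptors are carried by both, although leukocytes and endothelium also make vimentin.

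Of the 7 markers, 6 had a value above background on all 4 arrays, and each of these had 1 probe. The probe that the Entrez identifier assigns to Acta2 is labelled Actc1 in the files and lists transcripts of both genes, so it cannot be given to alpha smooth muscle actin alone. It was not above background on any array, and Acta2 has no ratio here. Each array carried 20174 probes, of which 72.5% to 78.7% had a value above background. As a check of the labelled tissue, 8 of 10 listed hepatocyte markers were found on the array and all 8 were above background on all 4 arrays. So were 14129 of 20023 genes, and this check says little about the tissue. Apoa1 and Tf were not matched to a probe. Every ratio below compares single arrays and so has no replicate check. Precision is limited by the number of arrays. Levels are log2 intensities after background correction with an offset of 50 and quantile normalization, and the offset pulls ratios of dim probes toward 0. The authors' globally normalized intensities, which are linear and carry no offset, are given beside them for the markers and, in part, for the lists. In this bulk tissue, fewer stellate cells and less RNA per cell cannot be told apart.

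The stretches in front of the filament genes Vim and Des are shown because these markers encode proteins of one family while their levels varied to a different extent. Each is the 250 bases before the RefSeq gene start in build GRCr8, with matches to TATAAA or GGGCGG, on either strand, in capitals. They lie on the plus strand at chr17:81577011-81577260 for Vim and chr9:84299376-84299625 for Des.
Vim: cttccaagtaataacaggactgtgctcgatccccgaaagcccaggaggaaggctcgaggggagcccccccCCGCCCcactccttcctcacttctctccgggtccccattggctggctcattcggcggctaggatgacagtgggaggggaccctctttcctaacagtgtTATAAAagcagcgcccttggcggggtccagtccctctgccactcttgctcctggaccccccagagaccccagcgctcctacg
Des: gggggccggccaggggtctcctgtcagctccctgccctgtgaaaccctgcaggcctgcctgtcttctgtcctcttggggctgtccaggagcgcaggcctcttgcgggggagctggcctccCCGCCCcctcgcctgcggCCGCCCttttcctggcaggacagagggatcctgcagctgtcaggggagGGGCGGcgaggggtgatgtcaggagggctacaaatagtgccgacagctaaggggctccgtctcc
Vim holds 1 match to TATAAA, at bases -82 to -77, and 1 to GGGCGG, at bases -180 to -175. Des holds 3 matches to GGGCGG, the nearest at bases -64 to -59, and none to TATAAA. Over 33469 rat promoters cut to the same length, 12.9% hold TATAAA and 30.5% hold GGGCGG. The CArG box, which serum response factor binds in contractile genes, has no strict match in these windows or in those of Acta2, Pdgfra and Lrat, and 501 of the 33469 windows hold one. With up to 1 G or C allowed among its central bases, 8.08% of windows hold a match, among them that of Acta2, at bases -134 to -125 and -84 to -75, and that of Lrat, at bases -209 to -200. A match describes these letters only. No promoter was matched for Tagln and Pdgfrb.

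Vim, which encodes the intermediate filament protein vimentin, varied the most of the 6 over the arrays, with a log2 range of 1.29. Its log2 level was 9.18 in transgenic liver without luteolin and 8.27 with it, and 8.61 in wild-type liver without luteolin and 7.89 with it. The authors' normalized intensities were 410.3, 168, 272 and 168 in the same order. The transgenic array was highest, and each luteolin array lay below its own genotype's array without luteolin. Vim was 1.88-fold lower with luteolin in transgenic rats (log2 ratio -0.91) and 1.64-fold lower in wild type (-0.71). It was the single measured marker past 1.5-fold in wild type. A ratio of -0.5 or lower in both genotypes was found for Vim and, in all, for 24 of the 14129 genes above background on all 4 arrays (0.170%).

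Des encodes desmin, the muscle-type intermediate filament that rat stellate cells also carry. Its log2 level was 6.38 in transgenic liver without luteolin and 6.21 with it, and 6.22 in wild-type liver without luteolin and 6.23 with it. The authors' intensities were 25.6, 14.7, 17.3 and 20.0. The transgenic array stood 0.15 above the next highest, and the other 3 lay within 0.021 of each other on the log2 scale. The luteolin ratio of Des was -0.17 in transgenic and 0.010 in wild type, and neither reached 1.5-fold. The skeletal muscle genes Ckm, Myh2 and Tnnt3 were not above background on any array. Of the 8 such genes on the array, 4 were above it on all 4 arrays. Among these was Tnnc2, with authors' intensities of 21.2, 15.6, 22.9 and 21.0, near those of Des. Of 11 measured genes of intermediate filaments and their linkers, 7 were lower with luteolin in transgenic rats and 9 in wild type, with medians of -0.061 and -0.043. Of all genes compared, 45.5% were lower in transgenic rats and 49.9% in wild type, and 1.03% and 0.378% were lower by 1.5-fold or more. These shares serve for the later lists too. Krt19, a keratin of bile duct cells, was at -0.55 and -0.65, and the nuclear lamin gene Lmna at -0.12 and -0.15.

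**Figure D1:**
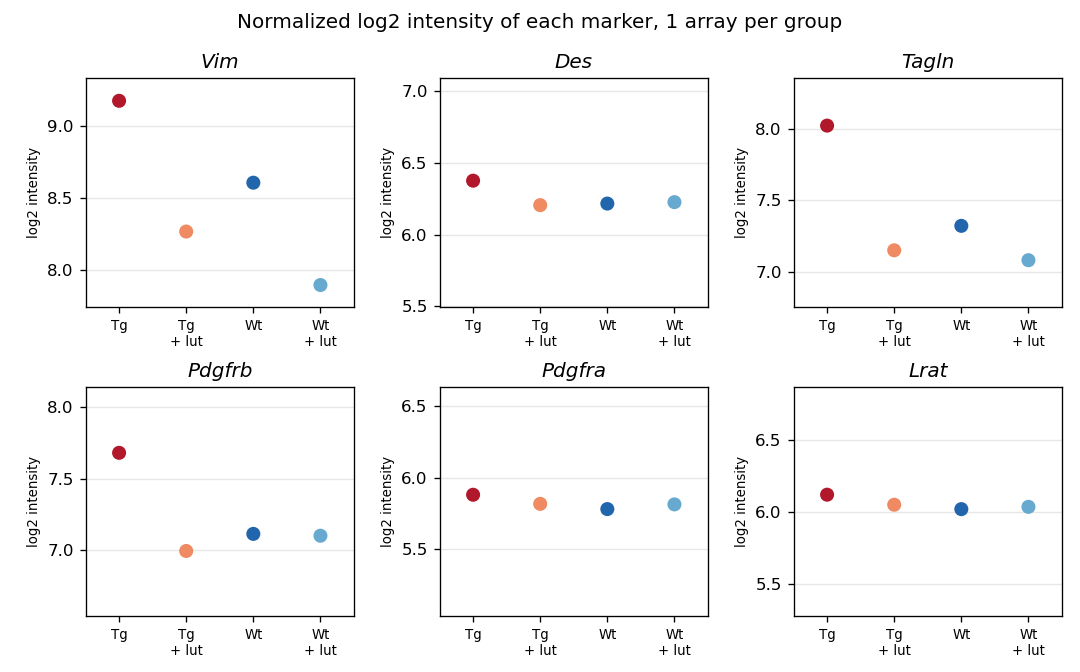
Log2 intensity (y axis) of the 6 measured markers on the 4 arrays (Tg, transgenic; Wt, wild type; lut, luteolin), with 1 point per array and so no error bar. The transgenic array without luteolin is the highest point for all 6 genes, and the other 3 arrays lie within 0.24 of each other except for Vim, where they span 0.71.

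Tagln encodes transgelin, an actin-binding protein of smooth muscle and myofibroblasts, and was the one marker of contractile cells with a usable probe. Its log2 level was 8.02 in transgenic liver without luteolin and 7.15 with it, and 7.32 in wild-type liver without luteolin and 7.08 with it. The authors' intensities were 168, 60.0, 85.8 and 74.3. The transgenic array stood 0.70 above the next highest, and the other 3 spanned 0.24. Tagln was 1.83-fold lower with luteolin in transgenic rats (-0.87) and 1.18-fold lower in wild type (-0.24).

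Of 22 genes listed for the contractile and actin cytoskeleton, 17 were measured on all 4 arrays. With luteolin 13 of the 17 were lower in transgenic rats and 11 in wild type, with medians of -0.11 and -0.058 beside medians of 0.0089 and 0 over all genes compared. In transgenic rats 2 of the 17 were lower by 1.5-fold or more, where 1.03% of all genes compared were. These 2 were Tagln2 (-0.59), a relative of transgelin, and Itga8 (-0.61), an integrin subunit of mesenchymal cells. In wild type these were at -0.53 and -0.19. There 0 of the 17 were past 1.5-fold, where 0.378% of genes were lower by that much. Cnn1, a calponin of smooth muscle, was not above background on any array, and Myh11 was not matched to a probe. Among 18 measured regulators of the serum response factor, YAP and TGF-beta pathways, 13 were lower in transgenic and 11 in wild type, 0 of them by 1.5-fold. Srf itself was at -0.32 and -0.39, and Ltbp1, which binds latent TGF-beta, at -0.58 and -0.055.

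Pdgfrb encodes the beta receptor for PDGF, through which activated stellate cells proliferate. Its log2 level was 7.68 in transgenic liver without luteolin and 6.99 with it, and 7.11 in wild-type liver without luteolin and 7.10 with it. The authors' intensities were 124, 50.3, 68.8 and 75.9. The transgenic array stood 0.57 above the next highest, and the other 3 lay within 0.12 of each other. Pdgfrb was 1.61-fold lower with luteolin in transgenic rats (-0.69), while its ratio in wild type was -0.013.

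Pdgfra, the alpha receptor, lay close to background. Its background-subtracted intensity was 8.41 units in transgenic liver without luteolin and 3.70 with it, and 2.62 in wild-type liver without luteolin and 4.73 with it. The log2 levels were accordingly close, at 5.88, 5.82, 5.78 and 5.81, and the luteolin ratios were -0.064 in transgenic and 0.033 in wild type. In the authors' intensities, without an offset, these ratios were -1.02 and 0.70, so their size depends on how dim probes are treated. Of 10 measured genes of PDGF ligands and signalling, 4 were lower with luteolin in transgenic rats and 5 in wild type, 0 of them by 1.5-fold, with medians of 0.026 and 0.0056. The ligand Pdgfd was at -0.27 and -0.046 and the adaptor Grb2 at -0.17 and -0.13. Pdgfd was dim, with authors' intensities of 16.2, 4.77, 6.24 and 5.43, so the offset pulled its ratios toward 0. The ligand Pdgfb was not above background on any array.

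Lrat, lecithin retinol acyltransferase, makes the retinyl esters that stellate cells store. It was dim as well, with log2 levels of 6.12 in transgenic liver without luteolin and 6.05 with it, and of 6.02 in wild-type liver without luteolin and 6.04 with it. The authors' intensities were 14.9, 9.63, 10.0 and 11.7. The transgenic array was again the highest, by 0.070 on the log2 scale. The luteolin ratios were -0.070 in transgenic and 0.016 in wild type.

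The genes listed for quiescence and vitamin A storage did not share one direction. Of 21 measured, 11 were lower and 10 higher with luteolin in transgenic rats (median -0.032), and 13 lower and 8 higher in wild type (-0.079). The 2 past 1.5-fold in transgenic rats were Cygb, cytoglobin, a globin of stellate cells (-0.85, and -0.34 in wild type), and the endothelin receptor gene Ednrb (-0.77 and -0.13). Of all genes compared there, 1.03% were lower by 1.5-fold or more. Gfap and Hand2 were not above background on any array. The list may hold genes that other liver cells also make. Its gene Rbp4 was at 0.22 in transgenic rats and -0.15 in wild type. The authors' intensity of Rbp4 was 15592 in transgenic liver without luteolin, above the 9399 of the hepatocyte marker Apoh. Of 13 measured genes of retinoid signalling and breakdown, 10 had higher levels with luteolin in the transgenic genotype (median 0.056) and 6 in wild type (-0.026). Of all genes compared, 54.5% and 49.9% were higher. By 1.5-fold 0 of the 13 were higher, where 0.488% and 0.297% of genes were. Cyp26b1, which degrades retinoic acid, was at 0.40 and 0.16, the retinaldehyde dehydrogenase gene Aldh1a1 at 0.20 and 0.24, and the retinol saturase gene Retsat at 0.0028 and 0.41.

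Taking the markers as a group, Vim, Tagln and Pdgfrb were lower with luteolin in transgenic rats. These are 3 of the 6 measured markers at 1.5-fold or more lower, where 1.03% of 14332 genes compared were. All 6 ratios were below 0, as were 45.5% of all genes, and the group's median log2 ratio was -0.43, against 0.0089 for all genes. Ratios of that size were commoner among bright genes, and the offset pulls those of dim probes, such as Des, Lrat and Pdgfra, toward 0. With genes in 4 equal classes by brightness, 1.70% of the class that holds Tagln and Pdgfrb were lower by 1.5-fold, and 1.84% of the class that holds Vim. In wild type 1 of 6 markers, Vim, was lower by 1.5-fold, where 0.378% of genes were, and 1.08% of the brightness class that holds Vim. There 3 of 6 were lower at all, as were 49.9% of genes, with a group median of -0.0014. At 2-fold, 0 of the 6 were called in any of the 4 comparisons, and luteolin in transgenic rats went with a lower level of that size in 0.167% of genes.

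Between the genotypes, the markers differed more on the diet without luteolin. All 6 were higher in transgenic than in wild-type liver there (median 0.36), as were 47.1% of genes. Tagln was 1.62-fold higher (0.70), past the bound of 1.5-fold that 0.686% of 14727 genes passed upward (1.16% of its brightness class), and Vim (0.57) and Pdgfrb (0.57) lay just under it at 1.49-fold and 1.48-fold. With luteolin in both genotypes, 0 of 6 markers reached 1.5-fold, where 0.445% of genes were lower and 0.431% higher by that much. In that comparison 4 of 6 were higher in transgenic liver, as were 51.5% of genes, with Vim at 0.37, Tagln at 0.069 and Pdgfrb at -0.11. Luteolin in transgenic rats and genotype without luteolin both use the transgenic array, so a level that is high on that array enters both. All 6 markers had their highest value on it, as did 26.0% of genes. Vim, Tagln and Pdgfrb exceeded each other array by 0.5 or more there, as did 0.715% of genes.

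The authors' normalized values gave larger ratios for the dim markers. With them 6 of 6 markers were lower by 1.5-fold with luteolin in transgenic rats, where 18.7% of genes were. In wild type Vim was lower, with 2.39% of genes, and Pdgfra higher, with 10.1% of genes. Without luteolin 4 of 6, Vim, Pdgfrb, Pdgfra and Tagln, were higher in transgenic liver, with 8.71% of genes, and with luteolin Pdgfrb was lower (-0.59), with 30.1% of genes. On this scale the median log2 ratio of all genes was itself -0.26 for luteolin in transgenic rats, 0.19 for luteolin in wild type, 0.025 for genotype without luteolin and -0.42 for genotype with it. With that median subtracted, 4 of 6 markers were lower by 1.5-fold with luteolin in transgenic rats, where 8.82% of genes were, and Des (-0.55) and Lrat (-0.37) were not among them. In wild type 1 of 6, Vim, was lower, with 4.86% of genes, and without luteolin 3 of 6 were higher in transgenic liver, with 8.13% of genes. With luteolin the genotype ratio of Pdgfrb became -0.18.

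**Figure D2:**
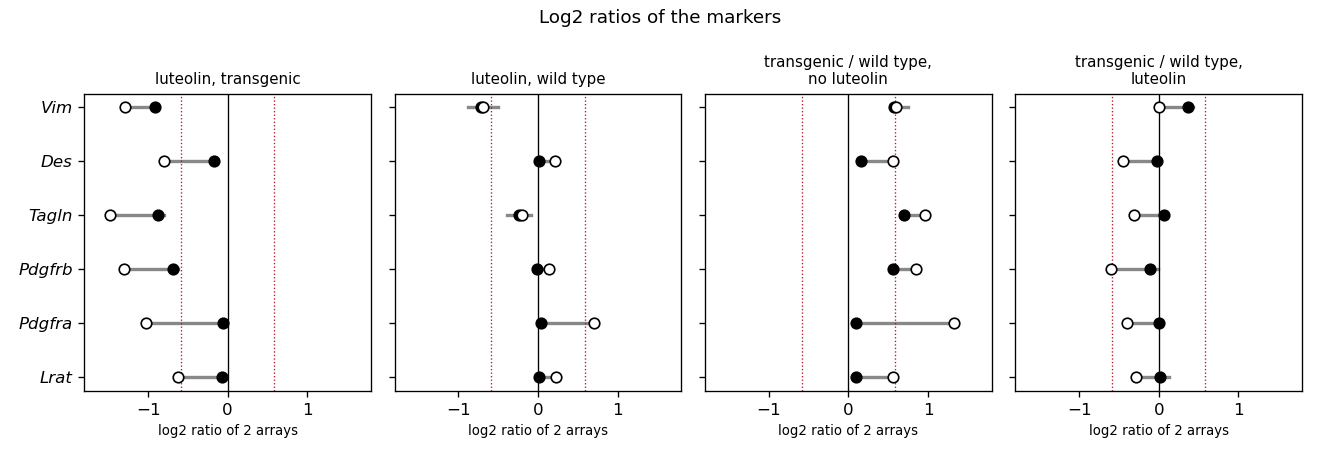
Log2 ratios (x axis) of the 6 measured markers in the 4 comparisons of single arrays. Filled points are the values reported, open points the authors' normalized values, grey bars the range over 8 ways of processing, and dotted lines 1.5-fold. All 6 ranges for luteolin in transgenic rats lie below 0, while those for genotype with luteolin reach both sides of 0 for Pdgfra, Tagln and Lrat.

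The luteolin ratio was lower in transgenic than in wild type for all 6 markers, as it was for 48.7% of genes. The difference between these log2 ratios was -0.67 for Pdgfrb, -0.63 for Tagln, -0.20 for Vim, -0.18 for Des, -0.096 for Pdgfra and -0.086 for Lrat. A gap of at least 0.5 in that direction was found in 1.66% of genes. With 1 array behind each group the difference was not tested.

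A limma model with additive terms for genotype and luteolin was fitted over 14129 genes. It sets the mean luteolin difference over both genotypes against a residual with 1 degree of freedom per gene. No group has a replicate, so that residual is the gap between the genotypes' luteolin ratios given above, moderated over all genes. Vim had a mean difference of -0.81 (SE 0.072, limma adjusted p = 0.561 over all genes). Tagln had -0.56 (SE 0.19, limma adjusted p = 0.602) and Pdgfrb -0.35 (SE 0.21, limma adjusted p = 0.726). At an adjusted p under 0.05 limma called 0 of the 6 markers and 0 genes in all (0%). At an unadjusted p under 0.05, 1 of the 6 passed, Vim, as did 1214 genes (8.59%). With an intensity trend in limma's variance prior, Vim (adjusted p = 0.00118) and Tagln (adjusted p = 0.0184) passed as lower with luteolin, where 1.77% of genes did, and Pdgfrb did not (limma adjusted p = 0.229). For genotype, Vim had a mean difference of 0.47 (SE 0.072, limma adjusted p = 0.686). Of the 6 markers 0 passed for genotype with or without the trend, and 1, Vim, had an unadjusted p under 0.05 without it, as did 1018 genes (7.21%).

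The matrix that activated stellate cells lay down was set beside the markers. This list, like the others, was chosen with earlier results of these data known, so its counts are a description. Luteolin went with lower levels of 10 of the 11 measured genes in transgenic rats, 7 by 1.5-fold or more, and 8 were lower in wild type, 1 of them by 1.5-fold. Of all genes compared, 45.5% were lower in transgenic rats and 1.03% by 1.5-fold, and in wild type 49.9% and 0.378%. Col3a1 and Col1a2, which encode chains of the fibrillar collagens, were at -1.56 and -1.39 in transgenic and at 0.056 and -0.34 in wild type. Timp1, an inhibitor of matrix metalloproteinases, was at -0.87 and -0.74. All 11 were higher in transgenic than in wild-type liver without luteolin (median 0.54), as were 47.1% of genes. Of the 11, 9 were highest on the transgenic array, as were 26.0% of genes. In the additive model 0 of the 11 passed, and with the intensity trend 5 passed as lower with luteolin. With the trend 1.77% of all genes passed as lower, and 328 of 14129 passed in either direction. With that trend 2 of 17 contractile genes, 1 of 21 quiescence genes, 1 of 10 PDGF genes and 1 of 11 filament genes also passed as lower, and 1 of 13 retinoid signalling genes as higher. Without the trend each of these lists had 0. In the authors' values, without an offset, the list medians for luteolin in transgenic rats lay lower. They were -1.49 for matrix, -0.63 for regulator, -0.55 for contractile and -0.38 for filament genes. For quiescence, PDGF and retinoid signalling genes they were -0.31, -0.20 and -0.060, beside -0.26 for all genes.

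**Figure D3:**
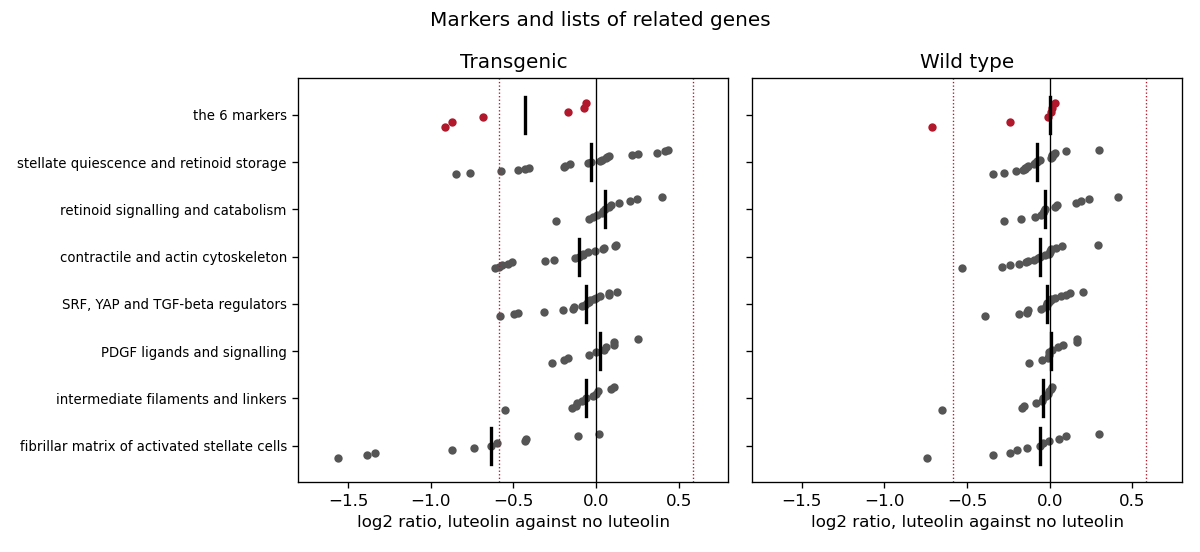
Log2 ratios for luteolin (x axis) in transgenic and wild-type rats, with 1 point per gene for the 6 measured markers (red) and 7 lists of related genes (grey), black ticks at the medians and dotted lines at 1.5-fold. The fibrillar matrix list has its median at -0.64 in transgenic rats and at -0.056 in wild type, and the markers at -0.43 and -0.0014.

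The genes whose levels over the 4 arrays lay nearest to each of the 3 most variable markers were taken from 11356 named genes, by Euclidean distance between log2 deviations from the gene's own mean. With 4 points per gene, close matches are easily found, and the distances are a description. Nearest to Vim were Timp1 (distance 0.036), the calcium-binding protein gene S100a6 (0.052), the macrophage elastase gene Mmp12 (0.069), the lipoprotein lipase gene Lpl (0.15) and Ccdc80 (0.15). Nearest to Pdgfrb were Lhfpl6 (0.026), the collagen lysyl hydroxylase gene Plod2 (0.026), the matricellular protein gene Sparc (0.037), the asporin gene Aspn (0.042) and Rgs2 (0.055), a regulator of G protein signalling. Nearest to Tagln were Zfp354a (0.039), Srpx2 (0.060), Cygb (0.081), the leukocyte surface protein gene Cd48 (0.084) and the basement membrane collagen gene Col4a1 (0.090). Tagln lay 0.26 from Pdgfrb and 0.35 from Vim, farther than any of these genes from its marker.

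**Figure D4:**
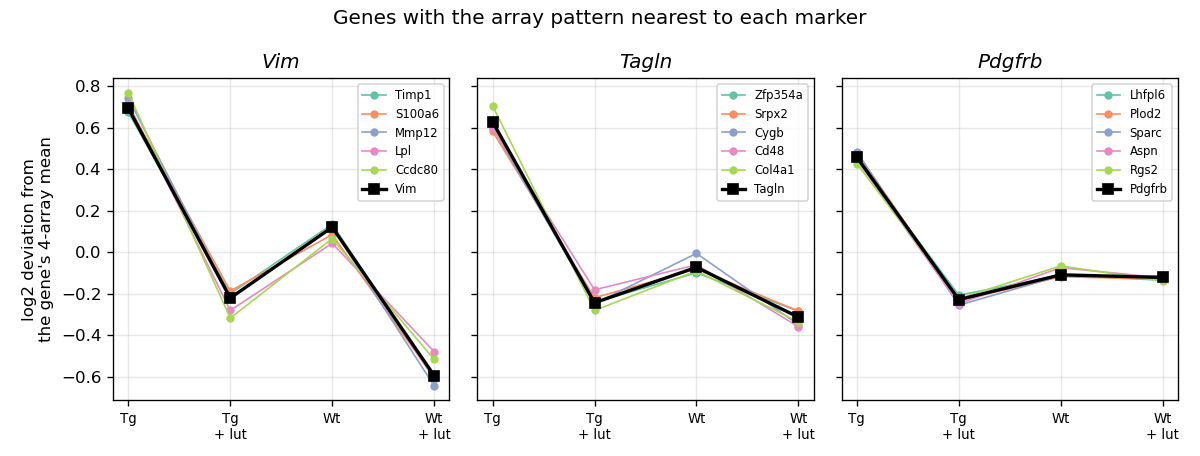
Log2 deviation from a gene's own mean over the 4 arrays (y axis) for Vim, Tagln and Pdgfrb (black squares) and the 5 named genes nearest to each (coloured circles), with 1 array per group along the x axis. Vim and its neighbours are lowest on the wild-type luteolin array, while Pdgfrb lies within 0.12 over the 3 arrays other than transgenic.

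Other liver cells make some of these transcripts too, above all vimentin, and their marker lists varied over the same arrays. The authors' intensities summed over 8 macrophage markers were 6552 in transgenic liver without luteolin and 3197 with it, and 3984 in wild-type liver without luteolin and 3508 with it. Of these genes Lyz2 had luteolin ratios of -1.22 in transgenic and -0.87 in wild type, and Lgals3 of -1.03 and -0.27. They make up 5061 of the 6552 units, and without them the sums were 1491, 1184, 1318 and 1412. By count, 5 of the 8 macrophage genes were lower with luteolin in transgenic liver and 3 higher (median -0.093), with Clec4f, a Kupffer cell lectin, at 0.24. In the same order of arrays, 8 cholangiocyte markers summed to 1592, 1073, 1592 and 1367. Epcam had luteolin ratios of -0.73 in transgenic and -0.48 in wild type, and Tspan8 of -0.86 and -0.33. Of the 8, 7 were lower with luteolin in transgenic liver (median -0.18). Cdh1 makes up 777 of the 1592 units on the transgenic array, and without it the sums were 816, 373, 565 and 434. The sums over 8 lymphocyte markers were 279.9, 181, 207 and 239.6. The common leukocyte antigen gene Ptprc was at -0.55 and -0.17 and Lck at -0.15 and 0.0083. Of the 8, 5 were lower with luteolin in transgenic liver (median -0.051). Ms4a1 was not above background on any array. For 5 endothelial markers the sums were 291, 209.8, 274 and 275.5, with Vwf at -0.20 and -0.073 and Tie1 at -0.18 and -0.095. Of the 5, 3 were lower with luteolin in transgenic liver (median -0.15). Pecam1 and Kdr were not matched to a probe. The macrophage, lymphocyte and endothelial sums were highest on the transgenic array, as was the cholangiocyte sum without Cdh1. Without Ptprc the lymphocyte sum was highest on the wild-type luteolin array, at 172 against 168 on the transgenic array. The part of these cells in the marker ratios was not tested.

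Lists for other mesenchymal and muscle cells, which can share Des, Tagln and the PDGF receptors with stellate cells, varied as follows. The sums over 4 mesothelial markers were 143, 65.4, 71.0 and 55.3. Msln had luteolin ratios of -0.58 in transgenic and -0.33 in wild type, and Wt1 of -0.23 and -0.069. Wt1 was dim, with authors' intensities of 13.0, 3.78, 5.54 and 3.87. With luteolin 4 of the 4 were lower in transgenic liver (median -0.13). For 7 portal fibroblast markers the sums were 627, 613, 698 and 834, with the elastin gene Eln at -0.63 and -0.085 and Mfap4 at -0.60 and -0.079. Mfap4 had authors' intensities of 32.5, 5.73, 7.71 and 5.80. Of the 7, 4 were lower with luteolin in transgenic liver and 3 higher (median -0.014). Dpt, the dermatopontin gene, at 0.32 and 0.037, carried most of that sum, and the other 6 genes summed to 119, 54.6, 63.1 and 60.2. For 5 markers of vascular smooth muscle and pericytes the sums were 155.3, 101.2, 134 and 129. Rgs5 was at -0.43 and -0.093 and Kcnj8 at 0.031 and -0.24. Of the 5, 2 were lower with luteolin in transgenic liver (median 0.0054). Of all 9 cell type sums, 6 were highest on the transgenic array. With the 1 brightest gene of each list left out 6 were, and with the 2 brightest left out 8 were. These 8 include narrow gaps between dim sums, such as 10.4 against 10.0 on the wild-type luteolin array for mesothelial genes. For 4 skeletal muscle genes the sums were 33.1, 19.7, 31.1 and 28.6. Acta1 was at -0.19 and -0.065 and Tnnc2 at -0.048 and -0.097. Of the 4, 3 were lower with luteolin in transgenic liver (median -0.027). For 8 hepatocyte markers the sums were 107179, 97849, 113363 and 125266, with Fgb at -0.32 and -0.28 and Apoh at 0.40 and -0.14. Of the 8, 2 were lower with luteolin in transgenic liver (median 0.098). These sums carry the shift of the authors' scale given above, and their part in the marker ratios was not tested.

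**Figure D5:**
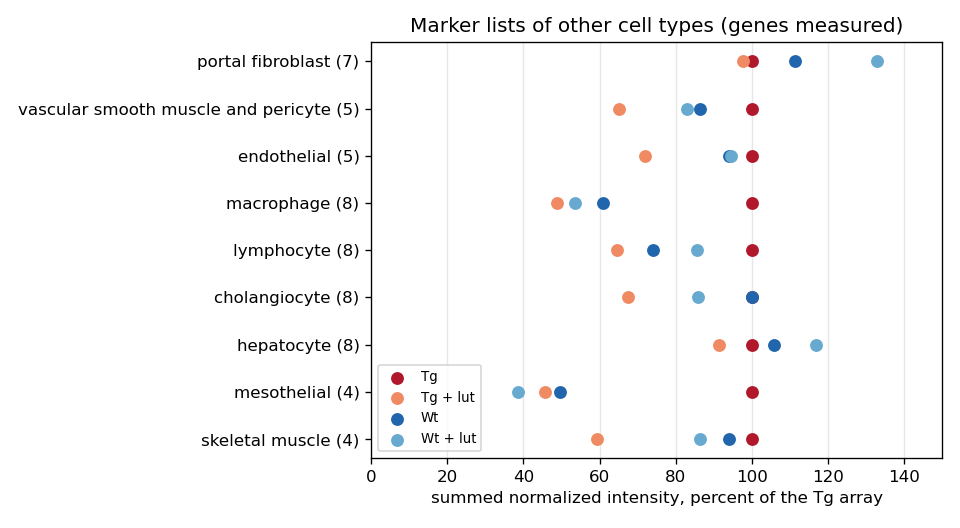
Summed authors' normalized intensity (x axis, percent of the transgenic array) of the measured markers of 9 other cell types on the 4 arrays (Tg, transgenic; Wt, wild type; lut, luteolin), with 1 point per array and the number of genes in parentheses. The macrophage sum on the transgenic luteolin array is 48.8% of that on the transgenic array, and the hepatocyte sum 91.3%.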

How the data were processed

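Per the labels' protocols, liver RNA was amplified and carried the dye Cy5, 1 colour per array. The deposited files give a raw, a background-subtracted and a globally normalized intensity per probe, per the file headers. On each array the second is the first less a constant (37.5 to 39.8), and the third is the second times a factor that sets its median to 25. The series table repeats the third in rounded form, within 0.500. No source used here names the scanner, its software or a genome build. A probe counted as above background where the authors gave a background-subtracted intensity, and 2 spots with a bad quality mark were left out.

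Raw intensities were corrected with limma's normexp (offset 50), taken to log2 and quantile normalized (R 4.3.3, limma 3.58.1). Probes were named through the RefSeq gene table by accession, Entrez identifier or symbol; 46 with conflicting accessions stayed unnamed. The brightest probe stood for a gene. Ratios use genes above background on both arrays, and 1.5-fold is the bound for counting. The limma model (lmFit, eBayes, Benjamini-Hochberg over all genes) was tested on simulated data without the intensity trend. The simulated luteolin effects were equal in both genotypes and the noise was independent between arrays. That test does not cover the fit with the trend, or luteolin effects that differ between genotypes. No group has a replicate, so the model's residual is the gap between the genotypes' luteolin ratios, moderated over all genes. The p-values set effects against that gap, which may be technical, and not against a spread between replicates.

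The markers and 16 lists were chosen with earlier results of these data known. Named are all markers, of each list the 2 genes with the largest mean luteolin difference and the 1 with the largest luteolin ratio, and 5 nearest genes for each marker that varied by 0.5 or more. List genes given as not above background or not matched were named after their values were seen, as were Clec4f, Dpt, Rbp4 and Cdh1. The sums without the brightest genes were added then. Alternatives covered normalization, offset, background, the authors' values, neighbouring rows of the file, the genes tested and the fold.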

Additional observations from a re-analysis of the deposited data

Results flagged for a closer look

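Several markers had ratios of opposite sign under the same contrast, each from 1 array per group, and the differences were not tested. For luteolin, Des had a log2 ratio of -0.17 in transgenic and 0.010 in wild type, Pdgfra of -0.064 and 0.033, and Lrat of -0.070 and 0.016. Des, Pdgfra and Lrat were dim, and the wild-type luteolin ratios of Des and Pdgfra did not keep their sign under every way of processing. For transgenic against wild type, Des was at 0.16 without luteolin and -0.021 with it, and Pdgfrb at 0.57 without and -0.11 with it.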

How the results depend on the processing

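No paired analysis was possible because each group has 1 array. For luteolin in transgenic rats the count of markers at 1.5-fold or more was 3, and it was 6 with the authors' values, 4 with these centred on the median difference and 0 at 2-fold. In wild type it was 1, and it was 0 with each array centred on its median, 2 with the authors' values (Vim lower, Pdgfra higher) and 0 at 2-fold. For genotype without luteolin it was 1, and it was 2 with cyclic loess and with the median of probes within 50 rows subtracted, 3 with median centring, with an offset of 16, without background correction and with the authors' values centred on the median difference, 4 with the authors' values and 0 at 2-fold. For genotype with luteolin it was 0, and 1 with the authors' values, where Pdgfrb was lower. Markers passing the additive model for luteolin numbered 0, and 2 with an intensity trend; for genotype the number was 0 under all 7 alternatives. Of 24 marker ratios, 18 kept their sign under all 7 other ways of processing, and 6 did not: Des, Pdgfrb and Pdgfra for luteolin in wild type, and Pdgfra, Tagln and Lrat for genotype with luteolin. None of these 6 was past 1.5-fold as reported; the cause was not tested. Taking each probe of a marker alone was not run, since each had 1 probe. Signal over background limits Pdgfra most, and after it Lrat and Des.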
